A study of Mus musculus with 15 samples.

Results

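The JAK, STAT, SOCS and Pim genes described here are 10 genes, picked by symbol from the 44827 gene symbols of the authors' table: the kinase genes Jak1 and Jak2, the transcription factor genes Stat3, Stat5a and Stat5b, the feedback inhibitor genes Socs1, Socs2, Socs3 and Cish, and the kinase gene Pim1. All 10 were in the table and all 10 passed the filter on low values. RNA was sequenced from LSK cells, sorted from bone marrow as lineage-negative cells that carry Sca1 and cKit. Blood stem cells and early progenitors are concentrated in this fraction. The mice were C57BL/6, and the marrow came from femurs, tibiae and iliac crests, with red cells lysed before the sort. There were 5 groups of 3 libraries: Tet2(-/-) Nras(G12D) mice with leukemia (the leukemic double mutant), Tet2(-/-) Nras(G12D) mice without leukemia (the double mutant), Tet2(-/-) mice, Nras(G12D) mice and wild-type (WT) mice. Both mutations are described as conditional and specific to blood-forming tissue; the Cre line that drives them is not given in the sources used here. An age is stated, 6 months, but for the mice of the methylome experiment. The descriptions of the leukemic libraries, and of no others, carry the letters BMT, so whatever these mark cannot be told apart from leukemia. Whether each library of a group is its own animal is not stated; the p-values therefore rest on differences among libraries, part of which may be technical.

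Cytokine receptors such as those for erythropoietin and interferon have no kinase domain. They bind Janus kinases (JAKs), which, once a ligand joins the receptor chains, phosphorylate the receptor and then STAT proteins. STAT dimers enter the nucleus and switch on target genes, among them the SOCS family (Socs1, Socs2, Socs3 and Cish), whose products bind JAKs or receptors and damp the signal, and Pim1, a survival kinase. In blood progenitors this pathway carries signals for survival, growth and lineage output. The same receptors also activate RAS proteins, of which Nras(G12D) is a constitutively active form. Tet2 is a dioxygenase that oxidises methylated cytosine.

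The libraries held 22733189 to 43562909 counts, and no counts at all for a gene still allows 3, which is 0.0775 to 0.127 CPM (a count scaled to the library size) from counting error alone. Values below are CPM on the authors' scaled library sizes, and log2 changes come from the deposited log2 values. The gene total of Tet2 was 32.3 to 76.5 CPM in the leukemic double mutant, 47.9 to 62.6 in the double mutant, 35.9 to 59.8 in Tet2(-/-), 45.2 to 75.1 in Nras(G12D) and 50.7 to 65.2 in WT libraries; which part of the gene is deleted is not given, so a gene total does not check the label. A codon change in Nras cannot be read from gene totals either. Summed Y-linked genes were above 10 CPM in 1 leukemic, 1 double mutant, 2 Tet2(-/-), 1 Nras(G12D) and 0 WT libraries. Of the 8 LSK and stem cell markers, all were detected in every library (Cd34, Kit and Flt3 highest). Their summed level was 2660, 676 and 1223 CPM in the leukemic libraries 1 to 3, 2635 to 3268 in the double mutant, 4207 to 5343 in Tet2(-/-), 2260 to 5125 in Nras(G12D) and 3321 to 3773 in WT. Nras(G12D) library 2 stood apart by its mature neutrophil markers, which summed to 3754 CPM against 99.7 to 406 in the other 14 libraries. Since these are bulk samples, fewer cells of a type and less RNA per cell cannot be told apart.

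STAT proteins bind DNA at a palindrome written TTCNNNGAA, and interferon-activated factors at an element in which GAAA recurs after 2 bases of any kind, called the GAAA pair here. Both motifs were looked for on both strands in the RefSeq promoter windows (GRCm38.p6; 250 bases before to 50 after the start site) of 9 of the 10 genes, 12 windows in all; no window for Socs2 was used. Matches lay in the windows of Cish, Socs3 and Socs1 alone, and these stretches are shown because the same genes are among those whose levels differed between groups. Capitals mark the matches.
Cish, chr9:107296629-107296688, plus strand: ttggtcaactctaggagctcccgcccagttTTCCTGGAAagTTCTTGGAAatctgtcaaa
Socs3, chr11:117969482-117969550, minus strand: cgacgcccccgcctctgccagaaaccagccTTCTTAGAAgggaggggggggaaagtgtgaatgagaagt
Socs1, chr16:10785574-10785649, minus strand: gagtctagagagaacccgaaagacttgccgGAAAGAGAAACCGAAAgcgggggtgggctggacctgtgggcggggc
The Cish stretch runs from position -30 to 30 around the annotated start (position 1, with no position 0) and holds 2 copies of TTCNNNGAA, beginning at positions 1 and 12. The Socs3 stretch runs from -184 to -116 and holds 1 copy at -154. The Socs1 stretch runs from -113 to -38 and holds 2 overlapping copies of the GAAA pair, at -83 and -77. Of 32851 promoter windows of 300 bases, 8.3% held TTCNNNGAA at least once and 0.457% at least 2 times; the shares for the GAAA pair were 3.44% and 0.225%. The RefSeq starts of Cish and Socs3 used here lie downstream of the GENCODE starts given below, so these 2 stretches fall inside the GENCODE genes. A match is a description of letters in the window and not a measured binding site.

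The levels of 5 of the 10 genes differed between the 5 groups: the kinase gene Jak1 and the feedback genes Socs1, Socs2, Socs3 and Cish (limma F test, Benjamini-Hochberg adjusted p = 0.0417 for Jak1, 0.00257 for Socs1, 0.00202 for Socs2, 0.00285 for Socs3 and 0.013 for Cish). Over all 13927 genes tested, 44% passed the same test, so 5 of 10 is near the background. In the leukemic double mutant against WT, 2 of the 10 passed (Socs1 and Socs3, both higher), against 24.7% of all genes. In the leukemic over the non-leukemic double mutant, 2 passed (Socs2 and Cish, both higher), against 24.3%. In the double mutant against Tet2(-/-), 4 passed (Stat3, Stat5b, Socs1 and Socs3, all higher), against 28.7%.

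None of the 10 passed in the other comparisons. For the double mutant against WT the count was 0, and 0.682% of all genes passed; 3 were at an unadjusted p under 0.05 (15.2% of all genes) and 4 passed with voom sample weights (26.3% of all genes). In Tet2(-/-) against WT it was 0, against 0.23% of all genes, with 3 unadjusted (23.7% of all genes) and 6 with voom weights (49.8%). In Nras(G12D) against WT it was 0, against 0% of all genes, with 2 unadjusted (4.14% of all genes) and 0 with voom weights (0%). For the double mutant against Nras(G12D) it was 0, against 0.079% of all genes, with 1 unadjusted (7.41% of all genes) and 0 with voom weights (0.158%). The interaction (the double mutant's log2 level minus those of Tet2(-/-) and Nras(G12D) plus that of WT) passed for 0 of the 10 and 0% of all genes, with 3 unadjusted (21% of all genes) and 6 with voom weights (42.5%). The median of its fitted values over the 10 was 1.11, against 0.09 over all genes. The median over all genes became -0.36 with median centring and -0.19 with quantile normalization, so it depends on the scaling. The 10 genes vary together in part (Pearson's r of 0.92 between Jak1 and Stat5b), so their values are not separate observations.

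**Figure D1:**
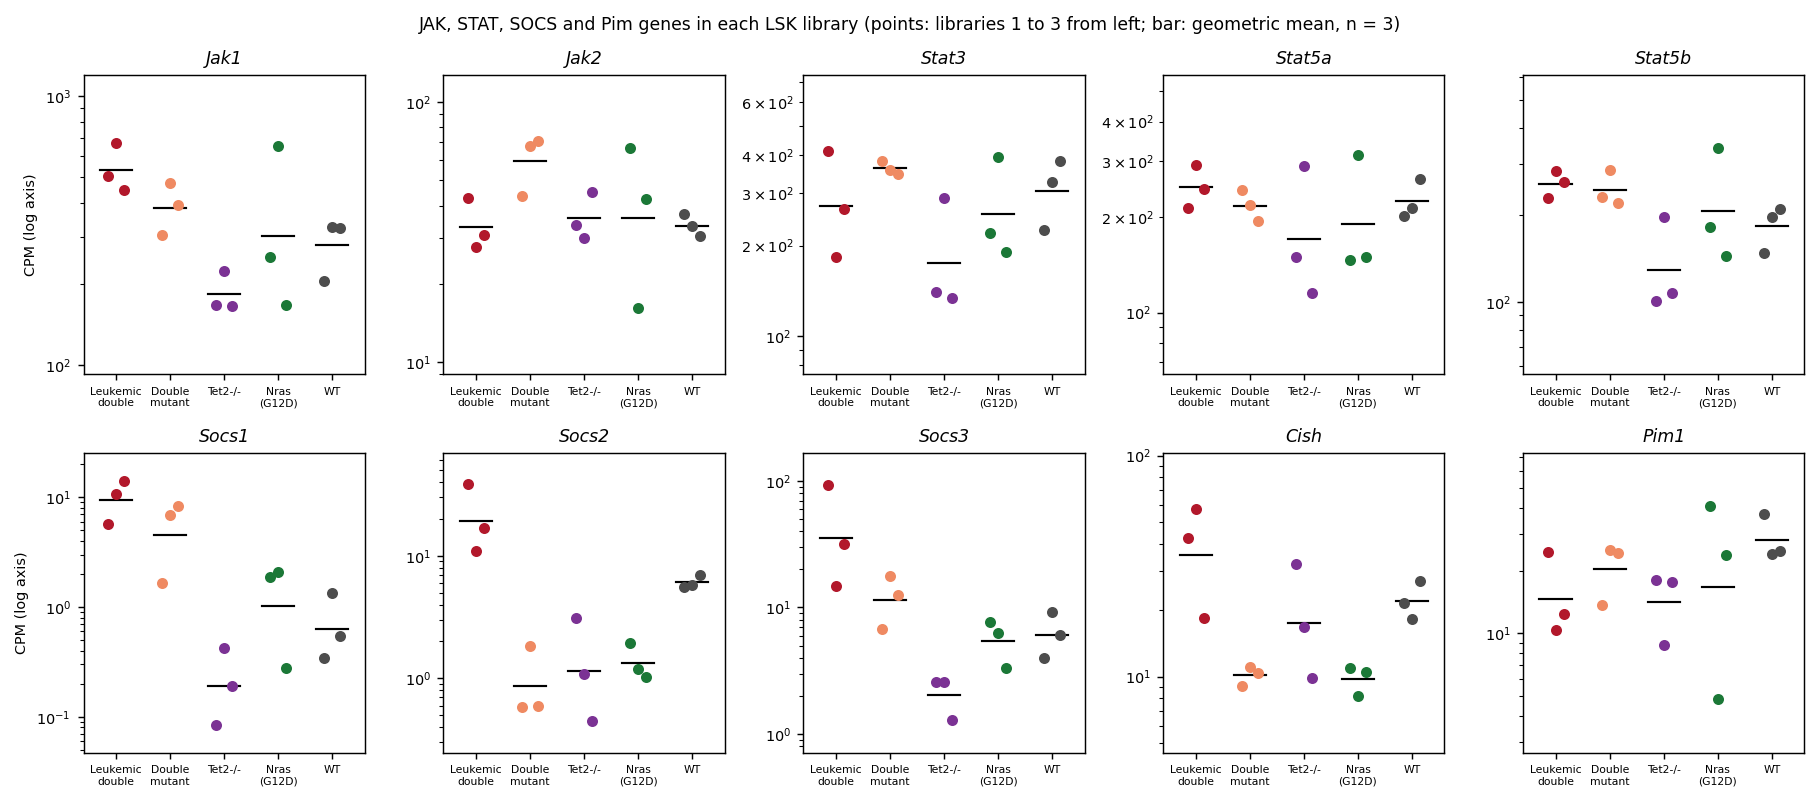
Level of each gene in each library, in CPM on log axes that differ between panels. Points are libraries 1 to 3 of a group from left to right and bars are geometric means (n = 3). The leukemic libraries lie above all WT libraries for Jak1, Stat5b, Socs1, Socs2 and Socs3, and the Socs2 points of the double mutant, Tet2(-/-) and Nras(G12D) all lie below those of WT. Only Socs1 and Socs3 in the leukemic double mutant passed the test over WT. How many of all genes separate in this way was not counted.

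The kinase genes come first. Jak1, the kinase shared by interferon, interleukin-6 family and common gamma chain receptors (chromosome 4 of GRCm38, 101152367 to 101265282, minus strand), was at 503, 669 and 449 CPM in the leukemic double mutant, 303, 477 and 392 in the double mutant, 167, 223 and 166 in Tet2(-/-), 253, 652 and 167 in Nras(G12D) and 205, 326 and 323 in WT. The 3 leukemic values all lay above the 3 WT values, and the 3 double mutant values above those of Tet2(-/-). Neither difference passed the test: the log2 change was 0.94 ± 0.39 (SE) over WT (limma, adjusted p = 0.0893) and 1.07 ± 0.39 over Tet2(-/-) (adjusted p = 0.052). The fit with a replicate block, which links same-numbered libraries of all groups, called Jak1 over Tet2(-/-) (1.07 ± 0.3; limma, adjusted p = 0.021). The labels state no such pairing, and deviations of same-numbered libraries of these 2 groups correlated at only 0.11 to 0.14. Of 12 alternatives that kept all libraries of the compared groups, 7 called it there, and median centring left 0.6. The replicate block called it in the leukemic double mutant over WT too (adjusted p = 0.0365), while quantile normalization left 0.6. The F test for Jak1 missed the threshold in 10 of the 15 fits that left out 1 library each (adjusted p 0.00327 to 0.115): without any 1 leukemic or WT library, without double mutant library 2 or 3, and without Tet2(-/-) library 1 or 3. Of 11 alternatives with all libraries, 9 called it. The call was lost with median centring (limma F test, adjusted p = 0.0569) and with no filter (adjusted p = 0.0643). Jak1 overlaps Raver2 on the other strand, which reached at most 11.066 CPM.

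Jak2, the kinase of the erythropoietin and growth hormone receptors (chromosome 19, 29251828 to 29313080, plus strand), had another order of groups. It was at 42.8, 27.7 and 30.8 CPM in the leukemic double mutant, 43.6, 67.8 and 70.9 in the double mutant, 33.8, 30 and 45 in Tet2(-/-), 66.5, 16.2 and 42.5 in Nras(G12D) and 37, 33.3 and 30.5 in WT. All 3 double mutant libraries were above all WT libraries and above all leukemic libraries. The log2 change was 0.83 ± 0.40 for the double mutant over WT (limma, adjusted p = 0.358) and -0.84 ± 0.40 for the leukemic over the non-leukemic double mutant (adjusted p = 0.139), so neither passed. The lowest value of all, 16.2 CPM, was in the Nras(G12D) library with the neutrophil markers; its part in the value was not tested. Leukemic and WT means were 33.7 ± 7.97 and 33.6 ± 3.26 CPM (SD, n = 3 each).

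The 3 STAT genes lie side by side on chromosome 11 of GRCm38: Stat5b (100780731 to 100850724, minus strand), then Stat5a (100859351 to 100885169, plus strand) after a gap of 8626 bases, then Stat3 (100885098 to 100939540, minus strand), which overlaps the end of Stat5a by 72 bases on the other strand. Whether counting used strand is not given, so reads from the overlap may count for either gene. Stat5a and Stat5b are near-identical copies in part: 15.8% of the 50-base windows of the Stat5a transcript occur exactly in that of Stat5b, and 11.8% the other way round, so the split of reads between these 2 genes is uncertain.

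Stat3, the factor of interleukin-6 family and G-CSF signals, was at 413, 183 and 264 CPM in the leukemic double mutant, 384, 357 and 347 in the double mutant, 140, 287 and 134 in Tet2(-/-), 221, 396 and 190 in Nras(G12D) and 225, 326 and 384 in WT. The double mutant libraries were close together and all above those of Tet2(-/-), while the leukemic libraries spread over the WT range. Stat3 rose by a log2 of 1.05 ± 0.36 in the double mutant over Tet2(-/-) (limma, adjusted p = 0.0428). This call was lost in 5 of 6 fits without 1 library and held only without Tet2(-/-) library 2 (log2 0.86 to 1.41 over the 6 fits), and it was lost with each library centred on its median (0.58, adjusted p = 0.152) and with no filter (adjusted p = 0.0818).

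Stat5b, one of the pair of STAT5 genes activated by erythropoietin and growth hormone, was at 228, 284 and 259 CPM in the leukemic double mutant, 231, 286 and 220 in the double mutant, 101, 197 and 107 in Tet2(-/-), 181, 340 and 144 in Nras(G12D) and 148, 196 and 210 in WT. Each library of both double mutant groups was above each WT library and each Tet2(-/-) library. Stat5b rose by 0.93 ± 0.31 in the double mutant over Tet2(-/-) (limma, adjusted p = 0.0398); over WT the change was 0.42 ± 0.31 (adjusted p = 0.599), and in the leukemic double mutant over WT 0.49 ± 0.31 (adjusted p = 0.265). The call against Tet2(-/-) also held in only 1 of 6 fits without 1 library, the one without Tet2(-/-) library 2 (0.75 to 1.23 over the 6), and it was lost with median centring (0.46, adjusted p = 0.187), with no filter (adjusted p = 0.0808) and with a correction for GC content and transcript length that was chosen after seeing the data (0.65, adjusted p = 0.0689).

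Stat5a, its close relative, varied less between groups. It was at 213, 293 and 246 CPM in the leukemic double mutant, 243, 218 and 194 in the double mutant, 150, 289 and 115 in Tet2(-/-), 147, 313 and 150 in Nras(G12D) and 201, 214 and 263 in WT. The groups overlapped in all 7 comparisons of 2 groups, and the log2 changes ran from -0.39 ± 0.33 in Tet2(-/-) over WT (limma, adjusted p = 0.469) to 0.35 ± 0.33 in the double mutant over Tet2(-/-) (adjusted p = 0.437). The sign of that last change turns with median centring (-0.12). Within the 3 STAT genes, Tet2(-/-) library 2 and Nras(G12D) library 2 were the highest of their groups for each gene.

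Among the feedback genes, Socs1, which binds and inhibits JAKs and is induced by interferons (chromosome 16, 10782240 to 10785536, minus strand; its promoter stretch with the GAAA pairs is shown above), was at 5.7, 10.6 and 14.1 CPM in the leukemic double mutant, 1.66, 6.93 and 8.29 in the double mutant, 0.085, 0.423 and 0.191 in Tet2(-/-), 1.88, 2.07 and 0.279 in Nras(G12D) and 0.343, 1.33 and 0.549 in WT. The lowest value, in Tet2(-/-) library 1, rests on 2 counts, below the limit of 3. The leukemic and double mutant libraries were all above every WT and Tet2(-/-) library. Socs1 rose by a log2 of 3.87 ± 0.83 in the leukemic double mutant over WT (limma, adjusted p = 0.00701) and by 4.43 ± 0.83 in the double mutant over Tet2(-/-) (adjusted p = 0.00472). The change of 2.82 ± 0.83 in the double mutant over WT missed the threshold (adjusted p = 0.112). The ratio of mean CPM was 13.7 between the leukemic double mutant and WT and 24.1 between the double mutant and Tet2(-/-), where the 3 Tet2(-/-) libraries held 22 counts in all against 514 in the double mutant. Both calls held in all 6 fits without 1 library (3.44 to 4.39 and 3.93 to 5.16). The correction for GC content and length left 3.29 in the double mutant over Tet2(-/-) (limma, adjusted p = 0.00675). The GC content of the Socs1 transcript is 58.8%, against a median of 49.3% over the tested genes.

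Socs2, an inhibitor of growth hormone and other STAT5 signals (chromosome 10, 95385362 to 95417180, minus strand), had the pattern that set the leukemic group apart. It was at 38.4, 10.9 and 16.8 CPM in the leukemic double mutant, 0.588, 1.84 and 0.597 in the double mutant, 3.1, 1.09 and 0.447 in Tet2(-/-), 1.96, 1.19 and 1.02 in Nras(G12D) and 5.53, 5.75 and 7.03 in WT. Every leukemic library was above every WT library, and every library of the 3 non-leukemic mutant groups was below every WT library. Socs2 rose by a log2 of 4.44 ± 0.65 in the leukemic over the non-leukemic double mutant (limma, adjusted p = 0.00146), a ratio of mean CPM of 21.8. Against WT no change passed: the log2 values were 1.65 ± 0.65 in the leukemic double mutant (adjusted p = 0.0756), -2.78 ± 0.65 in the double mutant (0.0689), -2.38 ± 0.65 in Tet2(-/-) (0.108) and -2.17 ± 0.65 in Nras(G12D) (0.88). Without any 1 library the call between the 2 double mutant groups held (3.94 to 4.97). The change in the double mutant over WT passed after quantile normalization (-3.11) and median centring (-3.01).

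Socs3, the inhibitor of interleukin-6 family and G-CSF receptors (chromosome 11, 117966079 to 117970047, minus strand; promoter stretch with 1 TTCNNNGAA above), was at 93, 14.9 and 32 CPM in the leukemic double mutant, 6.74, 17.6 and 12.6 in the double mutant, 2.59, 2.57 and 1.28 in Tet2(-/-), 7.64, 6.25 and 3.31 in Nras(G12D) and 3.96, 9.23 and 6.04 in WT. All leukemic libraries were above all WT libraries, and all Tet2(-/-) libraries were below them. Socs3 rose by a log2 of 2.55 ± 0.60 in the leukemic double mutant over WT (limma, adjusted p = 0.00969) and by 2.48 ± 0.60 in the double mutant over Tet2(-/-) (adjusted p = 0.01). In Tet2(-/-) over WT the change was -1.56 ± 0.60 (adjusted p = 0.149), and in the leukemic over the non-leukemic double mutant it was 1.63 ± 0.60 (adjusted p = 0.0591; 2.25 without leukemic library 2, adjusted p = 0.0292). Of 12 alternatives that kept all libraries of the compared groups, 5 called the latter change. Among these were quantile normalization (1.93; limma, adjusted p = 0.0259) and median centring (1.81, adjusted p = 0.0273). Without leukemic library 1, the highest, the change over WT was 1.85 (adjusted p = 0.0168). The change over Tet2(-/-) missed the threshold without double mutant library 2 (2.16, adjusted p = 0.0506) or Tet2(-/-) library 3 (2.14, adjusted p = 0.053), and the correction for GC content and length left 1.37 (adjusted p = 0.0433).

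The 2 inhibitors Socs2 and Socs3 differed in proportion between groups. The ratio of Socs2 to Socs3 in CPM was 0.413, 0.73 and 0.525 in the leukemic double mutant, 0.0872, 0.104 and 0.0475 in the double mutant, 1.2, 0.424 and 0.35 in Tet2(-/-), 0.256, 0.19 and 0.308 in Nras(G12D) and 1.39, 0.623 and 1.16 in WT. All double mutant ratios were below those of every other library. This ratio, chosen after its values were seen, was not tested.

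Cish, the founding member of the SOCS family and a STAT5 target (chromosome 9, 107296026 to 107302784, plus strand; promoter stretch with 2 copies of TTCNNNGAA above), was at 42.6, 57.2 and 18.5 CPM in the leukemic double mutant, 9.06, 11.1 and 10.4 in the double mutant, 32.2, 16.7 and 9.89 in Tet2(-/-), 10.9, 8.16 and 10.5 in Nras(G12D) and 21.5, 18.2 and 27.2 in WT. The double mutant and Nras(G12D) libraries were all below the WT libraries, while the leukemic and Tet2(-/-) libraries overlapped with WT. Cish rose by a log2 of 1.81 ± 0.43 in the leukemic over the non-leukemic double mutant (limma, adjusted p = 0.0102). The changes of -1.12 ± 0.43 in the double mutant (adjusted p = 0.213) and -1.17 ± 0.43 in Nras(G12D) over WT (adjusted p = 0.984) did not pass. The call was lost without leukemic library 2 (1.47, adjusted p = 0.057) and in a fit of the 2 groups alone (1.81).

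Pim1, a serine/threonine kinase that promotes survival and is induced by STAT3 and STAT5 (chromosome 17, 29490753 to 29496112, plus strand), did not pass in any comparison. It was at 24.6, 10.3 and 12.3 CPM in the leukemic double mutant, 13.6, 25 and 24.4 in the double mutant, 18.1, 8.76 and 17.6 in Tet2(-/-), 40.9, 4.8 and 23.8 in Nras(G12D) and 37.6, 24 and 24.7 in WT. The Tet2(-/-) libraries lay below all WT libraries (log2 -1.0 ± 0.62; limma, adjusted p = 0.323) and the other mutant groups overlapped with WT (-0.95 ± 0.62 in the leukemic double mutant, adjusted p = 0.274). Its widest spread was within Nras(G12D), where library 2 was the lowest of all 15.

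**Figure D2:**
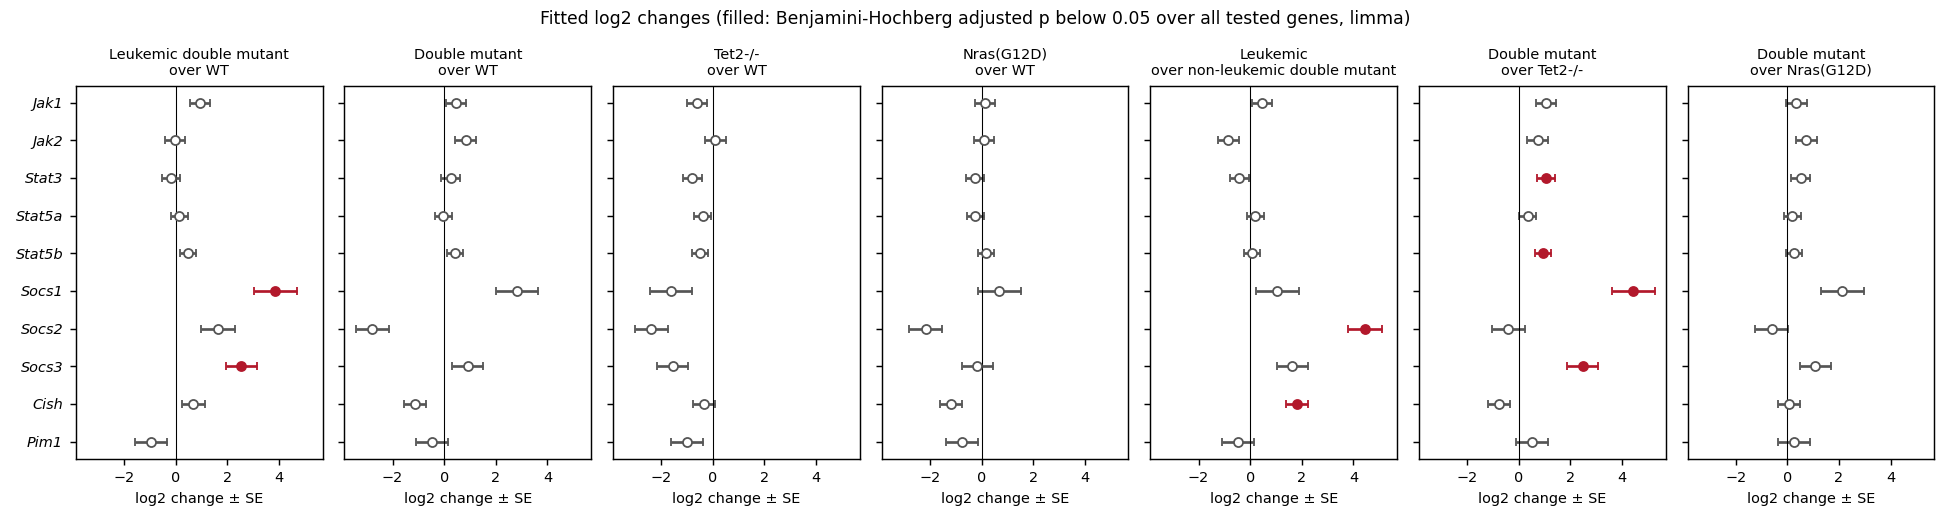
Fitted log2 change of each gene in the 7 comparisons of 2 groups, with standard errors as bars; filled points passed the Benjamini-Hochberg adjusted p of 0.05 over all genes tested. The 8 filled points are Socs1 and Socs3 in the leukemic double mutant over WT, Socs2 and Cish in the leukemic over the non-leukemic double mutant, and Stat3, Stat5b, Socs1 and Socs3 in the double mutant over Tet2(-/-).

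Levels were compared between genes per kilobase of exon, since longer genes collect more reads. In WT, Jak1 averaged 39.4 ± 9.57 CPM per kb, Stat5b 33.4 ± 5.94, Stat3 32.7 ± 8.41 and Stat5a 31.7 ± 4.57 (SD, n = 3), and these 4 did not differ beyond their spread. Pim1 (8.56 ± 2.28) and Jak2 (6.68 ± 0.649) came next and did not differ beyond theirs, followed by Cish at 3.48 ± 0.71, Socs3 at 2.22 ± 0.918, Socs2 at 0.64 ± 0.085 and Socs1 at 0.255 ± 0.179. In the leukemic double mutant Jak1 stood highest at 74.7 ± 15.9, then Stat5b (46.4 ± 5.02), Stat5a (35.1 ± 5.65) and Stat3 (30.1 ± 12.2). There Socs3, at 16.1 ± 14.2, ranked above Jak2 (6.71 ± 1.59), Cish (6.15 ± 3.04) and Pim1 (4.68 ± 2.30), although its spread reached them, and Socs1 (3.49 ± 1.45) and Socs2 (2.31 ± 1.52) remained lowest. Socs1, at 1.93 ± 1.2, was above Socs2, at 0.106 ± 0.0755, in the double mutant.

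The markers of other cell types and states moved with several of these calls. In the leukemic double mutant over WT, 7 of 8 erythroid markers rose, and their sum was 688, 6988 and 3195 CPM in the leukemic libraries 1 to 3 against 297 to 361 CPM in WT; 5 of 8 LSK and stem cell markers fell. Without leukemic library 2 these counts were 2 and 2, and without leukemic library 3 they were 3 and 2. Over the non-leukemic double mutant (179 to 368 CPM) all 8 erythroid markers rose. Leukemic library 1 had the lowest erythroid sum and the highest LSK marker sum of its group, and also the highest Socs2 (38.4 CPM) and Socs3 (93 CPM). Leukemic library 2, with the highest erythroid sum, had the highest Cish (57.2 CPM) and Jak1 (669 CPM). Without leukemic library 2, the change over the double mutant was 4.85 for Socs2 and 1.47 for Cish, which lost its call, and the change over WT was 3.78 for Socs1 and 3.17 for Socs3. Megakaryocyte and platelet markers summed to 692, 96.4 and 168 CPM in the leukemic libraries, against 571 to 662 CPM in WT. Here 2 of 6 fell, which is near the share of all genes called.

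Immediate early genes, which respond to signals and to cell handling, were high in the double mutant: their sum over 15 genes was 3245, 4343 and 5228 CPM there, against 810 to 976 in Tet2(-/-), 589 to 884 in Nras(G12D) and 453 to 623 in WT, and 10 of 15 rose over WT and over Tet2(-/-). Of all genes, 0.682% were called over WT and 28.7% over Tet2(-/-). Without WT library 1 or 3, the count of these 15 over WT was 0. It was 1 without double mutant library 2 or 3 and 4 without WT library 2. Over Tet2(-/-) the count was 7 to 10 without 1 library. In the leukemic double mutant the sum was 666, 664 and 2202 CPM, and 10 of 15 fell relative to the double mutant (4 without leukemic library 2, 5 without double mutant library 2 or 3). Dendritic cell markers (6 genes) summed to 410 to 646 CPM in the leukemic double mutant, 2113 to 3531 in the double mutant, 1027 to 3848 in Tet2(-/-), 517 to 3151 in Nras(G12D) and 431 to 619 in WT. Of the 6, 3 rose in the double mutant over WT (0 to 3 without 1 library). In Tet2(-/-) over WT 1 rose, where 0.23% of all genes were called. In the leukemic over the non-leukemic double mutant 5 fell, where 24.3% of all genes were called. None passed in the other comparisons of 2 groups. In the double mutant over Tet2(-/-), 2 of 6 mast cell and basophil markers rose (sums of 385 to 455 CPM against 114 to 184 CPM), as did 2 of 6 megakaryocyte and platelet markers (561 to 669 CPM against 309 to 684 CPM). Of all genes, 28.7% were called there, 2806 of the 3999 upward, so both counts are near the background. The megakaryocyte and platelet sums of the 2 groups overlap. Of the defining markers of other lineages, Cd3e was at 0 in 4 libraries, Gzma in 2, and Cd3g, Pax5 and Gp1bb in 1 each. Others of the same lists were detected in every library: Nkg7 at 70.6 to 359 CPM, Cd79b at 11.6 to 70.1, Itga2b at 55.7 to 451 and Pf4 at 4.02 to 146. The summed level over all libraries was 74.3 to 369 CPM for the 6 T and NK cell markers and 14.8 to 78.8 CPM for the 6 B cell markers. The part of these markers in the changes of the SOCS, STAT and JAK genes was not tested.

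**Figure D3:**
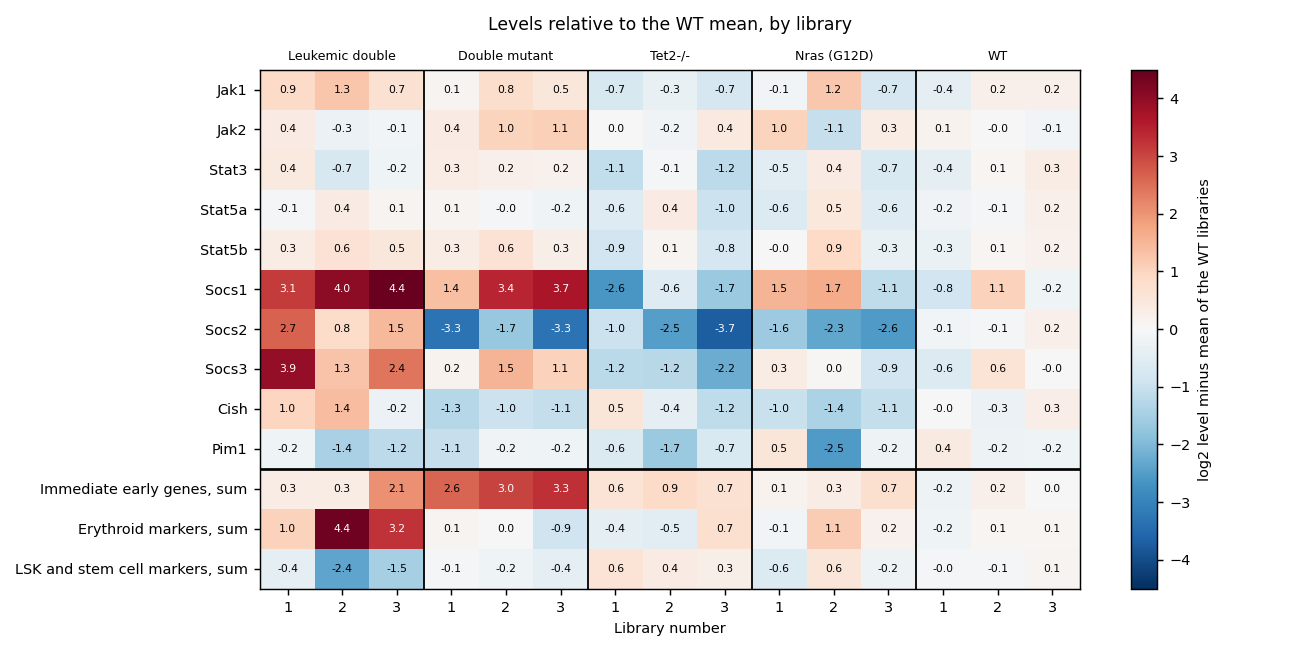
Log2 level of each gene in each library minus the mean of the WT libraries (colour and number), with the same for the summed immediate early, erythroid and LSK marker genes under the line. The row for Socs2 is below 0 in all 9 non-leukemic mutant libraries and above 0 in the 3 leukemic ones, and the immediate early row is highest in the 3 double mutant libraries.

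Over the 15 libraries the 10 genes fell into pairs of like pattern, which are given as descriptions since the libraries share groups, depth and composition. Pearson's r of log2 levels was 0.92 between Jak1 and Stat5b, 0.86 between Jak1 and Socs1, 0.85 between Socs1 and Socs3, 0.82 between Stat5a and Stat5b and 0.81 between Socs2 and Cish. The lowest were -0.59 between Stat5a and Pim1 and -0.57 between Jak2 and Stat5a. The 3 other tested genes with the highest r to each of the 10 were also read. For Socs1 these were Rbm17, Fam122a and Gpatch3 (0.99 each), for Jak1 Nipa2 and Fbxo42 (0.98 each) and Fbxo30 (0.97), and for Stat5b Atp6v0a2, Ube3b and Eml3 (0.98 each). For Stat3 they were Mgrn1 (0.98), Jak3 and Sgcb (0.97 each), for Jak2 Arglu1 (0.97), Plekha3 and Rbm26 (0.96 each), and for Stat5a Snx14 and Prrc1 (0.96 each) and Sepsecs (0.95).

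The genes most like the other 4 were less close. For Socs3 they were Id1, itself a STAT5 target, and Sema6b (0.93 each) and Relt (0.92). For Socs2 they were Tmod1 (0.90), Alpl and Sh3bgrl2 (0.89 each). Tmod1, a red cell membrane skeleton gene, averaged 4.35 CPM in the leukemic double mutant, 0.786 in the double mutant, 0.623 in Tet2(-/-), 1.17 in Nras(G12D) and 1.66 in WT. In the same order, Alpl averaged 2.39, 0.481, 0.575, 0.516 and 1.68 CPM, and Sh3bgrl2 6.56, 1.25, 1.96, 2.38 and 2.98 CPM. For Cish they were Adgrg2 (0.91), Pex11a (0.88) and Prnp (0.87), and for Pim1 Ryr1 (0.87), Slc12a2 and Clec1b (0.85 each).

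The rest of the pathway was read from 3 lists: 24 other JAK-STAT components, 28 JAK-coupled receptor genes (26 of which passed the filter) and 15 other STAT3 or STAT5 target genes. In the leukemic double mutant over WT, 2 components rose and 3 fell (median log2 -0.01), 4 receptors rose and 5 fell (-0.32), and 3 targets rose and 0 fell (0.56), with a median of 0 over all genes. The called shares, 5 of 24, 9 of 26 and 3 of 15, stand against 24.7% of all genes. With total counts as library size 0 components and 1 target rose, and 2 targets fell. Among receptors, Epor, the erythropoietin receptor, rose to 43.2, 299 and 176 CPM in the leukemic double mutant, against 7.7, 14.4 and 13.5 in WT (log2 3.52 ± 0.61; limma, adjusted p = 0.0028). Epor was highest in the leukemic libraries with the highest erythroid sums; its part in the change was not tested.

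Other receptors changed in the same comparison. Il21r, the interleukin-21 receptor, fell by 2.64 ± 0.37 (limma, adjusted p = 0.00118), and Lifr, the leukemia inhibitory factor receptor, rose by 3.22 ± 0.59 (adjusted p = 0.00337). Of the components, Socs5, another SOCS family member, fell to 6.42, 4.74 and 11.3 CPM in the leukemic double mutant, against 23.5, 25.7 and 21.1 in WT (-1.73 ± 0.35, adjusted p = 0.00538), and Stat4, the interleukin-12 factor (-1.67 ± 0.47), and Pias3, an inhibitor of STAT3 (-0.92 ± 0.26), also fell. Pim3, a relative of Pim1, rose by 1.83 ± 0.60 (adjusted p = 0.0391). Of the targets, Il2ra, the interleukin-2 receptor alpha chain, was at 1.99, 2.47 and 7.17 CPM in the leukemic double mutant, against 0.191, 0.117 and 0.183 in WT (4.20 ± 0.95, adjusted p = 0.00849). Its WT values lie near the limit of counting error. Il2ra reached 1 CPM in the leukemic libraries alone, so it passed the filter only through the group where it is high, and its call is no independent support. Id1 (1.89 ± 0.57) and the AP-1 gene Junb (1.83 ± 0.60) rose as well. The calls of Stat4, Pias3, Pim3, Id1 and Junb were each lost without leukemic library 3, WT library 1 or WT library 3, all but that of Id1 without leukemic library 2 (Stat4 at -1.02), that of Id1 without leukemic library 1 and that of Pias3 without WT library 2. The 3 targets that rose became 1 without leukemic library 3, WT library 1 or WT library 3.

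In the leukemic over the non-leukemic double mutant, 0 components rose and 3 fell (median log2 -0.19), 4 receptors rose and 5 fell (-0.30), and 1 target rose and 2 fell (-0.03), with a median of -0.1 over all genes. The called shares, 3 of 24, 9 of 26 and 3 of 15, stand against 24.3% of all genes. Without 1 library the receptors that rose numbered 2 to 5 and those that fell 2 to 9. Socs5 fell by 2.52 ± 0.35 (limma, adjusted p = 0.0011), opposite in sign to Socs2 and Cish. Epor rose by 3.74 ± 0.61 (adjusted p = 0.00254) and Il2rb, the interleukin-2 receptor beta chain, by 3.05 ± 0.68 (adjusted p = 0.00822), while Il21r fell by 2.14 ± 0.37 (adjusted p = 0.00321) and Il11ra1, the interleukin-11 receptor, by 1.59 ± 0.36 (adjusted p = 0.00878). The double mutant libraries held Il2ra at 0, 0.121 and 0 CPM, so its fitted change of 6.58 ± 0.95 (limma, adjusted p = 0.00128) depends on the added count. Il2ra, the 1 target that rose here, passed the filter through the leukemic libraries alone, so its call is no independent support. Bcl6, a transcriptional repressor (-1.75 ± 0.48), and Bcl2, a survival gene (-1.04 ± 0.35), were the targets that fell. Pias3 and Stat4 fell in this comparison too (-0.91 ± 0.26 and -1.36 ± 0.47), but the calls of Pias3, Stat4 and Bcl2 were lost with median centring (-0.73, -1.19 and -0.86), and those of Pias3, Stat4, Bcl6 and Bcl2 without any 1 of leukemic libraries 2 and 3 and double mutant libraries 1 and 2; Stat4 and Bcl2 were lost without double mutant library 3 as well. Without leukemic library 2, Stat4 was at -0.71, Bcl6 at -1.2 and Bcl2 at -0.55.

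In the double mutant over Tet2(-/-), 10 components rose and 3 fell (median log2 0.61), 6 receptors rose and 2 fell (-0.07), and 5 targets rose and 0 fell (0.74), with a median of 0 over all genes. The called shares, 13 of 24, 8 of 26 and 5 of 15, stand against 28.7% of all genes. Single libraries moved these counts: without double mutant library 2 or 3, or Tet2(-/-) library 1 or 3, 5 components rose and 0 fell, 0 receptors fell and 3 targets rose, and 2 to 4 receptors rose. Pim3 rose to 9.65, 46.7 and 51.3 CPM in the double mutant, against 1.61, 2.2 and 1.66 in Tet2(-/-) (log2 3.97 ± 0.60; limma, adjusted p = 0.00472). Ptpn1, a JAK phosphatase, rose by 2.08 ± 0.43 (adjusted p = 0.0055), Pias4, a SUMO ligase that inhibits STATs, by 2.34 ± 0.49 (adjusted p = 0.00587) and Pias2, of the same family, by 1.65 ± 0.36 (adjusted p = 0.00658). Csf2ra, the GM-CSF receptor alpha chain, rose to 43.6, 70.3 and 78.2 CPM in the double mutant, against 4.42, 21.5 and 4.15 in Tet2(-/-) (3.08 ± 0.58, adjusted p = 0.00472). Ifngr2 and Ifnar2, chains of the interferon receptors, rose by 2.36 ± 0.48 and 1.97 ± 0.46, and Il6ra, the interleukin-6 receptor, by 1.85 ± 0.47.

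The targets that rose in the double mutant over Tet2(-/-) were led by Junb at 282, 271 and 319 CPM in the double mutant, against 14.1, 63.8 and 8.93 in Tet2(-/-) (log2 3.86 ± 0.60; limma, adjusted p = 0.00472). Ccnd3, a G1 cyclin, rose by 1.92 ± 0.36 (adjusted p = 0.00472), Bcl3, a nuclear I-kappa-B protein, by 2.62 ± 0.62 (adjusted p = 0.00957) and Id1 by 2.27 ± 0.57 (adjusted p = 0.0126). Junb is also one of the immediate early genes. With each library centred on its median, the median of all genes in this comparison became -0.46, and 6 components rose and 8 fell, 5 receptors rose and 8 fell, and 4 targets rose and 2 fell. The correction for GC content and length left Pias4 at 0.77 and Bcl3 at 0.62, neither called. Of the 12 genes named in this comparison, 4 lost their call without single libraries: Ifnar2, Il6ra and Bcl3 were lost without Tet2(-/-) library 1, Il6ra and Bcl3 also without double mutant library 2 or 3, and Id1 without Tet2(-/-) library 3.

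In the other 4 comparisons of 2 groups no gene of the 3 lists passed. In Tet2(-/-) over WT, 10 components, 8 receptors and 3 targets were at an unadjusted p under 0.05 in limma; the smallest belonged to Ptpn1 (log2 -1.71) and Ptpn6, a phosphatase of blood cells (0.70), to the prolactin receptor gene Prlr (-2.70) and Epor (-2.36), and to Ccnd3 (-1.32) and Id1 (-1.86), each with an adjusted p between 0.108 and 0.117. Those of the double mutant over WT belonged to Pim3 (2.22) and Pias2 (1.23), to the interleukin-5 receptor gene Il5ra (-2.83) and Ifngr2 (1.64), and to Junb (2.59) and the survival gene Mcl1 (1.49), with adjusted p between 0.0676 and 0.121. Those of the double mutant over Nras(G12D) belonged to Pim3 (1.38) and Pias2 (0.76), Il2rb (-2.27) and the interleukin-7 receptor gene Il7r (-1.28), and Junb (2.43) and Ccnd2, a G1 cyclin (-0.49). In Nras(G12D) over WT they belonged to the adaptor gene Sh2b3 (0.65) and Pim3 (0.84), Il5ra (-2.44) and Prlr (-2.08), and Ccnd1 (0.93) and Mcl1 (0.62), the adjusted p of all 6 being 0.897 or more.

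**Figure D4:**
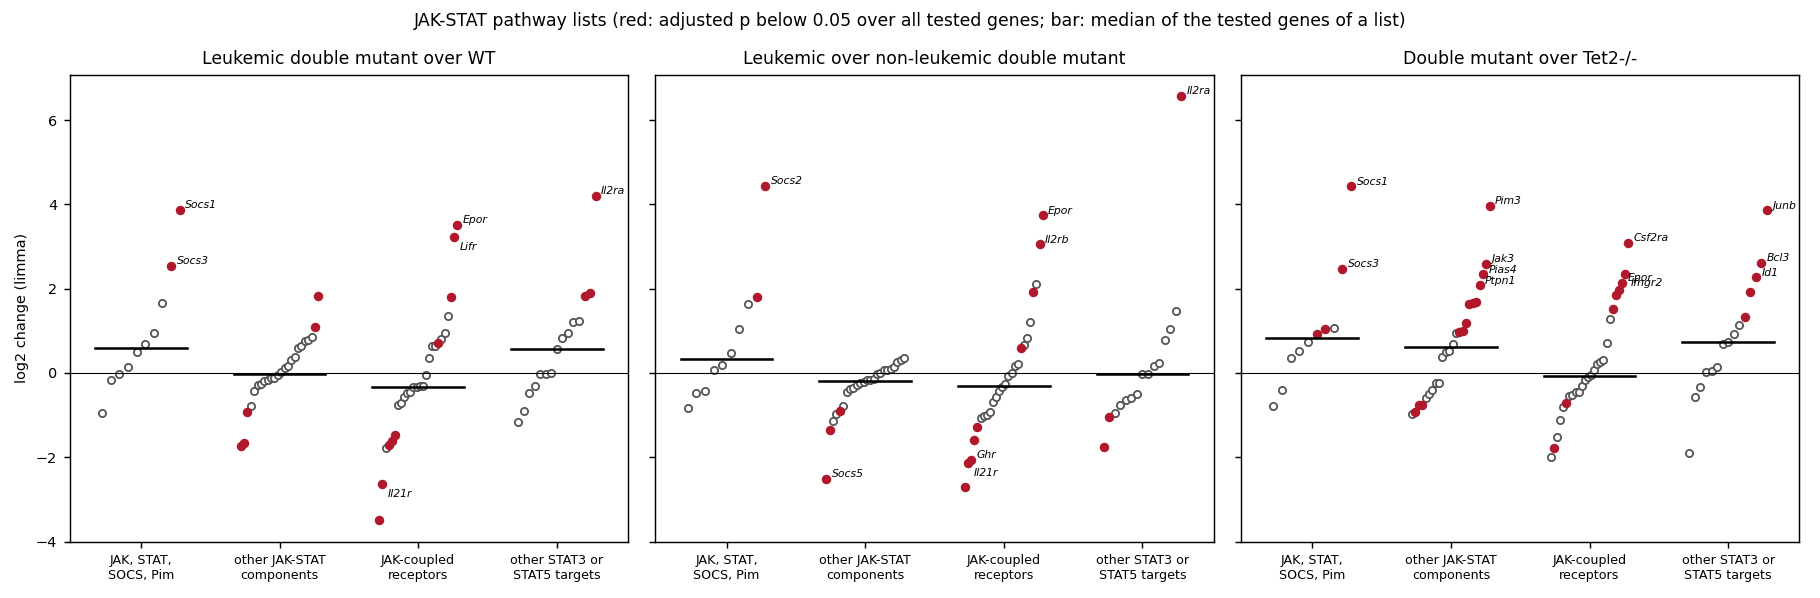
Log2 change of every tested gene of the 10 and of the 3 pathway lists in the comparisons of 2 groups in which any of the 10 passed; red points passed the adjusted p of 0.05 over all genes tested and bars are medians. In the leukemic double mutant over WT the labelled receptors lie on both sides, Epor and Lifr above and Il21r below, while in the double mutant over Tet2(-/-) the labelled points lie above 0.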

How the data were processed

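RNA was measured in 15 libraries of 5 groups. The deposited values are log2 CPM; 0.5 had been added to counts and 1 to library sizes. The values themselves gave this unit: 100% of them came back as whole counts within 1e-06. The authors' library sizes differed from the count totals by a factor of 0.813 to 1.118. The tools named per the submitters' processing notes are limma 3.28.21, edgeR 3.14.0, STAR 2.4.0f1 and bcl2fastq; of the builds NCBIM37 and mm10 no role is stated. How reads were counted, with which annotation and strand setting, is not given in the sources used here. Libraries were stranded, per the labels. Columns were matched to samples by description, the BMT columns to the leukemic libraries and N2-3 to Nras(G12D) library 2.

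The 13927 genes that reached 1 CPM in 3 or more libraries were fitted with limma 3.58.1 (trend) in R 4.3.3, with 5 group means over all 15 libraries, which left 10 residual degrees of freedom. Two-sided tests were used, with Benjamini-Hochberg adjustment over all genes and a threshold of 0.05. Lack of overlap between the libraries of groups is given as a description, and how many of all genes separate so was not counted. The fit was tested on simulated data. Changes are shown as estimate ± SE; the added count understates changes of low genes. Coordinates of genes are from GENCODE M21 (GRCm38). Replicate libraries all differed by more than sampling noise (lowest chi-square per degree of freedom 23.3).

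The 10 genes and all lists were chosen with earlier results of these data known. Pathway genes are named by rule: per list and comparison, up to 4 called genes of smallest adjusted p, or the 2 of smallest p where none was called; from each marker list, up to 3 genes of highest level. 1 gene that the rule takes is not reported here. Deviations of same-numbered libraries from their group means correlated at 0.11 to 0.14 between the double mutant and Tet2(-/-). No other 2 groups had every correlation over 0.1. The values of 0.11 to 0.14 lie within the range over all groups, -0.35 to 0.29. They therefore cannot establish a pairing of these 2 groups, and the labels state none. The replicate block was fitted over all 15 libraries, so it also links groups whose correlations were as low as -0.35. Alternatives were other scalings, added counts, filters, weights, covariates and left-out libraries.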

Additional observations from a re-analysis of the deposited data

Results flagged for a closer look

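Socs2 lay above WT in the leukemic group and below WT in the other mutant groups, without overlap of libraries. None of these changes over WT passed (limma, adjusted p = 0.0756 in the leukemic double mutant, 0.0689 in the double mutant, 0.108 in Tet2(-/-) and 0.88 in Nras(G12D)). The flag rests on the lack of overlap in these same data, and how many of all genes separate so was not counted. The log2 change in the leukemic double mutant (1.65) exceeded that in the double mutant (-2.78) by 4.44, a difference that is the same contrast as the leukemic over the non-leukemic double mutant and passed (limma, adjusted p = 0.00146). It exceeded that in Tet2(-/-) (-2.38) by 4.04 and that in Nras(G12D) (-2.17) by 3.83; these 2 differences were not tested. For Socs3, the leukemic change over WT (2.55) exceeded that in Tet2(-/-) (-1.56, which did not pass) by 4.10, and this difference was not tested. Again every leukemic library was above and every Tet2(-/-) library below every WT library. These comparisons share the WT libraries. Each group holds 3 libraries, so outlying libraries within a group were not tested.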

How the results depend on the processing

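The counts of the 10 genes called depended on the setting. With voom sample weights they were 6 in Tet2(-/-) over WT, 4 in the double mutant over WT, 6 in the leukemic double mutant over WT, 7 in the double mutant over Tet2(-/-), 6 in the leukemic over the non-leukemic double mutant, 6 in the interaction and 10 in the F test. These weights ran from 0.225 for leukemic library 1 to 4.11 for leukemic library 3. In the fit of the compared groups alone, 2 were called in the double mutant over WT, 4 in the leukemic double mutant over WT and 1 in the leukemic over the non-leukemic double mutant. For the double mutant over WT, 1 gene (Socs2) was called after quantile normalization, median centring and with Y-linked genes as covariate; with no filter, 2 were called in the double mutant over Tet2(-/-). Leaving out 1 library gave 0 to 1 calls in Tet2(-/-) over WT, 0 to 1 in the double mutant over WT (1, Socs1, without double mutant library 1), 1 to 5 in the double mutant over Tet2(-/-), 0 to 2 in the interaction, 4 to 7 in the F test, and 2 in each fit of the 2 leukemic comparisons. These 2 were not always the same genes. Without leukemic library 2, Socs3 took the place of Cish in the leukemic over the non-leukemic double mutant. Deviations of same-numbered libraries correlated at -0.35 to 0.29, over 0.1 in 12 of 30 pairs and in every pair only between the double mutant and Tet2(-/-), where the replicate block called 5 of the 10, the 4 named and Jak1. Elsewhere the block called 1 gene (Socs2) in Tet2(-/-) over WT, added Jak1 in the leukemic double mutant over WT and Stat5b in the F test, and changed no other call of the 10; together with a GC and length correction, chosen after seeing the data, the block gave 1 in the double mutant over WT and 5 in the leukemic double mutant over WT. GC content had a Spearman correlation with the log2 change of -0.31 in Tet2(-/-) over WT and 0.27 in the double mutant over Tet2(-/-). It was 0.25 in the interaction and -0.01 to 0.10 in the other comparisons of 2 groups. Stat5a turned sign: to 0.23 in Tet2(-/-) over WT with the GC correction, alone or with the replicate block, to -0.61 in the double mutant over Tet2(-/-) with either and -0.12 with median centring, and to -0.36 in the interaction with either; the cause was not tested. No other value of the 10 genes recomputed here turned sign. Socs1 and Socs3 in the leukemic double mutant over WT, Socs1 in the double mutant over Tet2(-/-) and Socs2 in the leukemic over the non-leukemic double mutant were called under every alternative run.

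Counts over all genes also moved. Leaving out 1 library gave 5 to 2235 in Tet2(-/-) over WT, 0 to 5 in Nras(G12D) over WT, 6 to 992 in the double mutant over WT, 1356 to 5251 in the leukemic double mutant over WT, 1258 to 5243 in the double mutant over Tet2(-/-), 9 to 114 in the double mutant over Nras(G12D), 1185 to 5295 in the leukemic over the non-leukemic double mutant, 0 to 1692 in the interaction and 3881 to 7874 in the F test. In Tet2(-/-) over WT (32) they were 144 with quantile normalization, 89 with median centring, 53 with no filter, 6938 with voom weights, 713 with the replicate block, 378 with the block and GC correction, 75 with the GC correction, 57 in the compared groups alone and 21 with Y-linked genes. For the double mutant over WT (95) they were 213 with quantile normalization, 3660 with voom weights, 528 with Y-linked genes and 574 in the compared groups alone. With voom weights they were 8426 in the leukemic double mutant over WT, 8802 in the double mutant over Tet2(-/-), 7900 in the leukemic over the non-leukemic double mutant (741 in the compared groups alone), 5917 in the interaction, 12366 in the F test and 22 in the double mutant over Nras(G12D), which had 25 with quantile normalization, 17 with median centring and 5 alone. Median centring gave 6059 in the double mutant over Tet2(-/-), of which 33.3% were higher against 70.2% as deposited and 45.9% after quantile normalization. In the leukemic over the non-leukemic double mutant 37.2% were higher, 53.8% with median centring, 48.4% with quantile normalization and 21.2% with total counts, and in the leukemic double mutant over WT 43.7% and, with total counts, 25.9%. Depth limits Socs1 most: 22 counts in 3 Tet2(-/-) libraries.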
